A study of Mus musculus with 2 samples.

Results

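The genes described here are Il33, which encodes the cytokine IL-33, Il1rl1, which encodes its receptor ST2, and 4 genes of basophils and mast cells: Fcer1a, Cpa3, Il4 and Il13. They are 6 of the 396 panel genes counted under all 4 sample tags, and all 6 were found by symbol in each tag's table. They were chosen by name with their levels in clusters of these same cells already known, so where they were found and at what level is a description. The data are molecule counts in 12018 single cells from orthotopic 4T1 tumours, made on BD Rhapsody cartridges with a mouse immune response panel that amplifies a preset list of transcripts. 4T1 is a mouse mammary carcinoma line derived from BALB/c mice, and the cells were injected into the mammary fat pad of female BALB/c mice of 8 weeks. The series has 2 samples, each a single cartridge that holds cells of 2 treatment arms under separate tags. The anti-PD-1 pool (tags 3 and 4) holds tumours treated with an antibody to PD-1, alone or combined with an antibody to Siglec-E. The no-anti-PD-1 pool (tags 1 and 2) holds tumours treated with a rat isotype control antibody or with the Siglec-E antibody alone. Which of its 2 arms a tag holds is not stated in the labels, and no value below belongs to a named arm. Antibodies were given after tumours were established at 7 days and about 70 mm3, to 6 mice per arm, and 2 tumours per arm went into the cell suspension. EPCAM-positive and EPCAM-negative cells were recombined 1 to 4 in every arm. The balance of epithelial and other cells was thus set at the bench, yet the shares recovered differed between tags, as given below. With 1 sample per pool there is no replicate, treatment cannot be told apart from cartridge, and no test was run. Intervals are exact 95% intervals (Poisson for molecules, Clopper-Pearson for shares of cells) and cover counting error only.

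IL-33 is stored in the nucleus of stromal and epithelial cells and is released when those cells are damaged. It acts on cells that carry ST2, among them mast cells, basophils, group 2 innate lymphoid cells, T helper 2 cells and a subset of tissue regulatory T cells. Fcer1a encodes the alpha chain of the high-affinity IgE receptor, which mast cells and basophils share, and Cpa3 encodes carboxypeptidase A3, a protease of their granules. Il4 and Il13 encode the type 2 cytokines IL-4 and IL-13, which act through receptors that share the IL-4 receptor alpha chain. Kit, the receptor for stem cell factor, is kept by mature mast cells and is low or absent on mature basophils.

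All 6 genes lie on autosomes in GRCm38 and are annotated as protein coding in GENCODE M21. Il33 lies at chr19:29925114-29960718 on the plus strand and Il1rl1 at chr1:40429570-40465415 on the plus strand. Fcer1a lies at chr1:173221284-173227214 and Cpa3 at chr3:20215620-20242181, both on the minus strand. Il4 (chr11:53602982-53618669) and Il13 (chr11:53631324-53634702) are neighbours on the minus strand with 12654 bases between them.

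Tag 3 held 6620 cells and tag 4 held 1453, against 2430 cells under tag 1 and 1515 under tag 2. Median depth was 1262 and 1419 molecules per cell in the anti-PD-1 pool (tags 3 and 4), against 1463 and 1325 in the no-anti-PD-1 pool (tags 1 and 2). Molecules of the shared genes summed to 12416134 and 3074544 in the anti-PD-1 pool, against 5318288 and 2993684 in the no-anti-PD-1 pool. Of the barcodes, 37 occurred in both samples and 0 more than 1 time within a sample, and 2 of the 248 cells with 3 or more molecules of any of the 6 genes had such a barcode. Clustering rebuilt from the counts gave 17 clusters, which were joined into 11 classes, of which the neutrophil-like class was the largest with 9038 cells. That class joins 7 clusters by their S100a8 level (at least 50000 CPM) and low Lgals1, since single clusters among them held 0 to 3 neutrophil markers among their 10 leading genes and 2 were led by Ccl3, while the joined class is led by Cxcr2 and S100a8. A cell type name was given to other clusters only with at least 3 markers of 1 list among those 10. Of those that had 3 or more, the Lgals1-high cluster (4 epithelial or 4T1 markers), the Cd34 and Ccl19 cluster (3 stromal) and the S100a8-rich T cell gene cluster (5 T cell markers, S100a8 at 211945 CPM) were still called by genes. The cluster led by Il4, Cpa3 and Fcer1a (44 cells) had 4 mast cell and 5 basophil markers among its 10 leading genes, so it carries no cell type name here.

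Each of the 6 genes was rare. A cell with 3 or more molecules of a gene is called a firm carrier of it. Il33 had 1725 molecules in all, with 52 firm carriers and 125 cells with at least 1 molecule. Il1rl1 had 2248 molecules, 185 firm carriers and 372 cells with at least 1. Firm carriers numbered 31 for Fcer1a, 28 for Cpa3, 28 for Il4 and 30 for Il13. At the threshold, 5 cells held exactly 3 Il33 molecules and 17 held exactly 2, and for Il1rl1 these numbers were 33 and 64. Firm carriers held nearly all molecules of each gene, with the lowest share at 88.8% for Il1rl1 and the highest at 98.4% for Cpa3. Neutrophil-like cells were taken as a class that should lack these genes. At least 1 molecule was seen in 0.387% of these cells for Il33, 0.985% for Il1rl1, 0.0775% for Fcer1a, 0.188% for Cpa3, 0.0996% for Il4 and 0.0775% for Il13, at a median depth of 1208.5 molecules. Shares near these in other classes are read as background.

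The levels of the 6 genes were next set side by side between the pools. Levels are molecules per 1000000 molecules of the shared panel genes (CPM) over all cells of a tag. A gene is called where the tags of the pools did not interleave and the closest pair of tags across the pools differed by 1.5-fold or more. Of the 6 members 1 was called, against 10.1% of the 376 genes with at least 30 molecules, so Il4 alone met the rule and it was lower in the anti-PD-1 pool. Il4 stood at 47.2 and 11.1 CPM in the anti-PD-1 pool (tags 3 and 4), against 98.9 and 79.8 CPM in the no-anti-PD-1 pool (tags 1 and 2). The ratio of the pool means was -1.62 on the log2 scale, and the pools did not overlap. A single cell held 337 of the 526 Il4 molecules of tag 1, and without the highest cell of each tag the log2 ratio was -1.11. The call was lost when S100a8, S100a9 and Fth1 were left out of the total, where the log2 ratio was -1.35, and it held with each tag left out in turn.

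The other 5 genes did not meet the rule. Il13 stood at 93.7 and 35.5 CPM in the anti-PD-1 pool, against 16.4 and 24.4 CPM in the no-anti-PD-1 pool. The pools did not overlap, but the closest tags were 1.45-fold apart, and 1 cell held 966 of the 1163 Il13 molecules of tag 3. Without the highest cell of each tag the log2 ratio for Il13 was 0.20, against 1.66 with all cells. Cpa3 stood at 72.2 and 376 CPM in the anti-PD-1 pool, against 5.64 and 157 CPM in the no-anti-PD-1 pool. Fcer1a stood at 47.1 and 138 CPM in the anti-PD-1 pool, against 15.04 and 117 CPM in the no-anti-PD-1 pool. For both genes the tags of the pools interleaved, and 1 cell of tag 2 held 369 of that tag's 469 Cpa3 molecules and 274 of its 349 Fcer1a molecules. Without the highest cell of each tag, the log2 ratio was 2.99 for Cpa3, against 1.46 with all cells, and 1.95 for Fcer1a, against 0.49. With tag 4 left out both ratios turned negative, at -0.17 for Cpa3 and -0.48 for Fcer1a, and with tag 1 left out that of Fcer1a was -0.33. Il1rl1 stood at 86.4 and 217 CPM in the anti-PD-1 pool, against 39.1 and 100.2 CPM in the no-anti-PD-1 pool. Tag 3 lay below tag 2, so the Il1rl1 values overlapped, with a log2 ratio of 1.123. Il33 stood at 40.5 and 69.6 CPM in the anti-PD-1 pool, against 162 and 49.8 CPM in the no-anti-PD-1 pool. The highest Il33 value, of tag 1, set the log2 ratio of -0.94, which was 0.15 with tag 1 left out. Of the 9 Il33 carriers among the highest 5% of doublet scores 8 were in tag 1, and without those scores the log2 ratio was -0.32; the part of doublets was not tested.

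**Figure D1:**
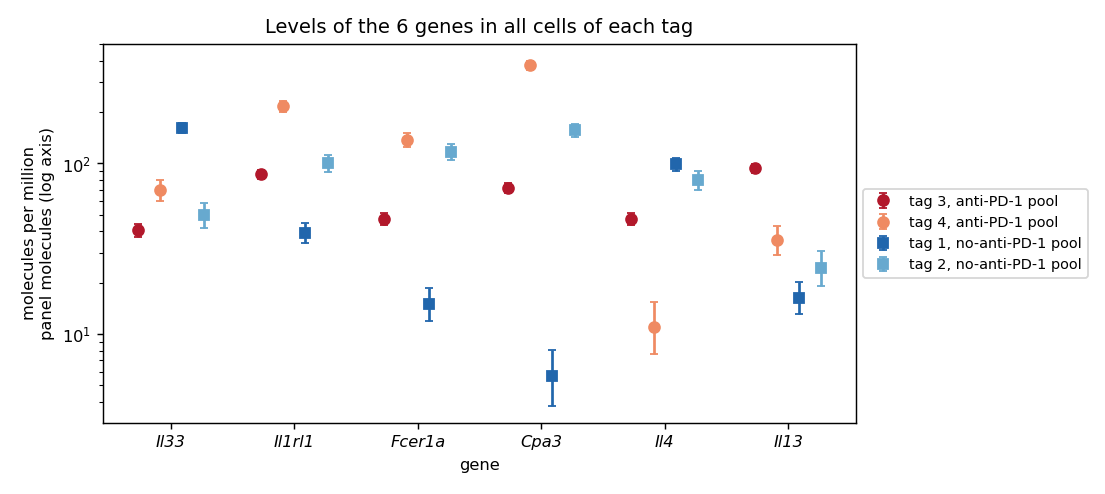
Level of each gene over all cells of a tag, in molecules per 1000000 panel molecules on a log axis, with exact Poisson 95% intervals. Circles are the tags of the anti-PD-1 pool and squares those of the no-anti-PD-1 pool. Il4 (47.2 and 11.1 against 98.9 and 79.8) and Il13 (93.7 and 35.5 against 16.4 and 24.4) are the genes whose pools do not overlap, and the Cpa3 values range from 5.64 in tag 1 to 376 in tag 4.

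Il33 molecules lay mainly in 2 clusters. The cluster led by Ccl19 and Cd34 (42 cells) held 1224 of the 1725 Il33 molecules, which is 71.0%, and the cluster led by Cd200 and Zbtb16 (187 cells) held 401, which is 23.2%. Il33 was at 4920 CPM (95% interval 4649 to 5204) in the first of these clusters and at 617 CPM (558 to 681) in the second. In the Ccl19 and Cd34 cluster 37 of 42 cells had Il33, at a median depth of 5587.5 molecules. In the Cd200 and Zbtb16 cluster only 23 of 187 cells had it (12.3%), at a median depth of 2898, and 14 were firm carriers. Regulatory T cell-like cells (340), B cell-like cells (70), the Il4, Cpa3 and Fcer1a cluster (44) and the T cell gene cluster rich in S100a8 (131) had 0 Il33 molecules. Il33 was itself among the genes clustered and led both clusters, so the concentration is a description.

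Of the 52 firm Il33 carriers, 36 had at least 1 molecule of Cd34, the sialomucin of stromal, endothelial and progenitor cells, and 16 had none. This split was chosen after the values had been seen. The Cd34-positive carriers numbered 10 and 6 in tags 3 and 4 of the anti-PD-1 pool, against 15 and 5 in tags 1 and 2 of the no-anti-PD-1 pool. As shares of cells these are 0.151% and 0.413% in the anti-PD-1 pool, against 0.617% and 0.330% in the no-anti-PD-1 pool, and the pools overlapped. The Cd34-negative carriers numbered 7 and 2 in the anti-PD-1 pool, against 5 and 2 in the no-anti-PD-1 pool. Both kinds were present under every tag.

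The Cd34-positive Il33 carriers had high counts of matrix, complement and chemokine genes. Their median per cell was 306 molecules of Fn1 (fibronectin), 338 of Ccl2 (a monocyte chemoattractant), 323 of Cxcl1 (a neutrophil chemoattractant), 144 of C3 (complement component 3) and 96.5 of Thy1 (a surface glycoprotein of fibroblasts and T cells). In the Cd34-negative carriers the medians were 0 for Fn1, 0 for Ccl2, 2.5 for Cxcl1, 1 for C3 and 0 for Thy1. Ebf1, a transcription factor of B cells and stromal cells, was in 26 of 36 Cd34-positive and 0 of 16 Cd34-negative carriers, Thbd (thrombomodulin) in 26 of 36 and 0 of 16, and Dpp4 in 27 of 36 and 1 of 16. Lrrc32, the docking protein for latent TGF-beta, was in 25 of 36 Cd34-positive and 3 of 16 Cd34-negative carriers. The stromal list has 5 genes on the shared panel, Cd34 and Il33 among them, and its summed level was 14 to 442 molecules per Cd34-positive cell and 5 to 91 per Cd34-negative cell. Ccl2 in the Cd34-positive carriers ran from 0 to 1216 molecules per cell, so cells of the set differed widely. Median depth was 5278 molecules in the Cd34-positive and 2234 in the Cd34-negative carriers, and the part of depth in these differences was not tested.

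The Cd34-negative Il33 carriers had epithelial transcripts. The genes Epcam and Cdh1, which encode epithelial adhesion molecules, were counted under tags 2 to 4 only, where Epcam was in 9 of 11 Cd34-negative carriers with a median of 93 molecules and in 0 of 21 Cd34-positive carriers. Cdh1 was in 9 of 11 Cd34-negative and 1 of 21 Cd34-positive carriers. Cd200, an inhibitory surface glycoprotein, was in 13 of 16 Cd34-negative carriers with a median of 20 molecules, and in 20 of 36 Cd34-positive carriers with a median of 1. The tumour gene Msln, found in 452 of 527 cells of the Lgals1-high cluster under tags 2 to 4, was in 0 of 11 Cd34-negative and 0 of 21 Cd34-positive carriers. Lgals1, which leads that cluster, had a median of 6 molecules in Cd34-negative and 302.5 in Cd34-positive carriers. The Lgals1-high cluster, whose 10 leading genes hold 4 markers of the epithelial and 4T1 list, had Epcam in 488 of those 527 cells. In all its 779 cells it held 1.33% of Il33 molecules and had Il33 in 1.54% of cells at a median depth of 3029, against 0.387% in neutrophil-like cells at 1208.5. Neutrophil markers were present beside Il33: the 7 on the panel summed to a median of 27.5 molecules per Cd34-positive and 34 per Cd34-negative carrier, with single cells up to 4223 and 3745. The 11 T cell markers summed to at most 3 molecules per Cd34-positive and at most 246 per Cd34-negative carrier, with medians of 0 and 0.5. The part of these transcripts in the result was not tested.

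**Figure D2:**
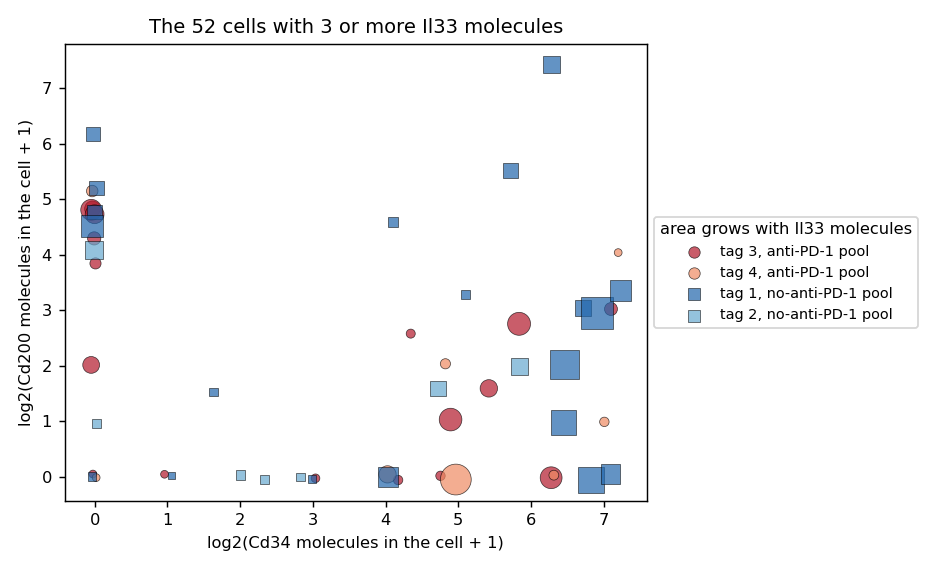
Each point is a cell with 3 or more Il33 molecules, placed by its Cd34 and Cd200 molecules as log2(molecules + 1), with a small random shift so that points at 0 can be seen, and with an area that grows with its Il33 molecules. The 16 cells at 0 on the Cd34 axis and the 36 cells to their right are found under all 4 tags, and 12 of the 16 have 3 or more Cd200 molecules.

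By the ratio of CPM in firm Il33 carriers over all other cells, the genes furthest from 1 were Cd34 (116-fold), Lrrc32 (76.0-fold), Ebf1 (72.2-fold), Ccl2 (59.7-fold), Thbd (48.9-fold), Cd200 (46.02-fold), Dpp4 (29.6-fold) and Ncam1 (24.1-fold). By overlap of firm carriers, measured as cells with both genes over cells with either (Jaccard index, 12018 cells), the nearest genes to Il33 were Cd34 at 0.306, Ebf1 at 0.222 and Lrrc32 at 0.198. Il33 and Il1rl1 were rarely found in the same cell: 3 of the 52 firm Il33 carriers were firm Il1rl1 carriers, and 9 had at least 1 Il1rl1 molecule. Those 9 cells were Cd34-positive. Cpa3, Il4 and Il13 had 0 molecules in Il33 carriers, and Fcer1a had 2 molecules in 2 cells.

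Firm Il1rl1 carriers were most often regulatory T cell-like. Regulatory T cell-like cells held 868 of the 2248 Il1rl1 molecules (38.6%) and 101 of the 185 firm carriers, and the Il4, Cpa3 and Fcer1a cluster held 699 molecules (31.1%) and 29 firm carriers. By CPM Il1rl1 was higher in the cluster, at 6466 CPM (95% interval 5995 to 6963), than in regulatory T cell-like cells, at 3572 CPM (3338 to 3818), over all tags. By tag the order was not the same throughout. The cluster stood at 5410 and 19371 CPM in tags 3 and 4 of the anti-PD-1 pool, against 2102.5 and 2880 CPM in tags 1 and 2 of the no-anti-PD-1 pool. Regulatory T cell-like cells stood at 3790.1 and 3911 CPM in the anti-PD-1 pool, against 2770 and 2569 CPM in the no-anti-PD-1 pool. The cluster was thus higher in tags 3 and 4, its interval overlapped that of the T cells in tags 1 and 2, and in tag 1 its value was the lower of the pair. The cluster mixes Kit-positive and Kit-low cells, described below, and over all tags these sets had Il1rl1 at 14691 and 1920 CPM. The part of that mix in the values by tag was not tested. Monocyte/macrophage-like cells followed with 244 molecules and 24 firm carriers at 65.7 CPM (57.7 to 74.4), and the S100a8-rich T cell gene cluster with 96 molecules and 13 firm carriers at 352 CPM (285 to 430). Of the 24 monocyte/macrophage-like carriers, 19 also held Cd4 and 17 held Foxp3, and their median depth was 5159.5 molecules against 2760.5 in the class. T cell transcripts were thus common in these carriers. They were not counted here in the other cells of the class, and their part was not tested. In the Ccl19 and Cd34 cluster Il1rl1 was in 14 of 42 cells, with 5 firm carriers and 129 CPM (88.0 to 182).

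By tag, regulatory T cell-like cells made up 56 of 90 and 30 of 50 firm Il1rl1 carriers in the anti-PD-1 pool (tags 3 and 4), against 7 of 21 and 8 of 24 in the no-anti-PD-1 pool (tags 1 and 2). The class as a whole took 3.05% and 5.23% of cells in the anti-PD-1 pool, against 1.15% and 2.24% in the no-anti-PD-1 pool. These shares did not overlap between the pools, which was not particular to this class. CD8 T cell-like cells took 2.36% and 5.09%, against 0.70% and 1.06%. B cell-like cells and the S100a8-rich T cell gene cluster also had higher shares under both anti-PD-1 tags, while NK cell-like shares interleaved. Within the class, firm Il1rl1 carriers were 27.7% (95% interval 21.7 to 34.4) and 39.5% (28.4 to 51.4) of cells in the anti-PD-1 pool, against 25.0% (10.7 to 44.9) and 23.5% (10.7 to 41.2) in the no-anti-PD-1 pool. The intervals of these within-class shares overlap. They cover counting error only, and with 1 sample per pool they cannot decide whether the pools differ. The class was drawn with Il1rl1 among the clustered genes, and its size rests on that clustering.

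**Figure D3:**
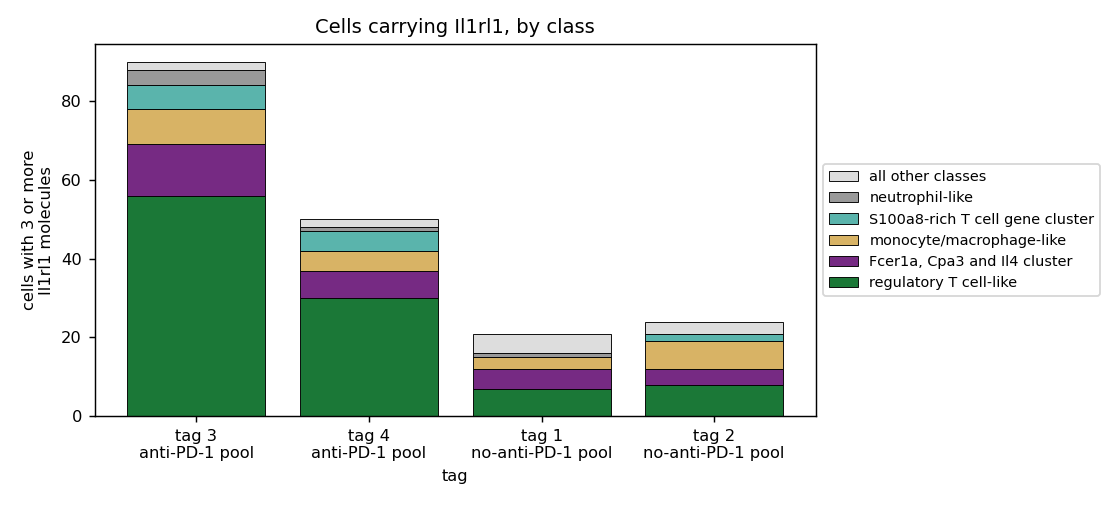
Number of cells with 3 or more Il1rl1 molecules under each tag, stacked by class. Regulatory T cell-like cells are 56 of 90 and 30 of 50 in tags 3 and 4 of the anti-PD-1 pool, against 7 of 21 and 8 of 24 in tags 1 and 2 of the no-anti-PD-1 pool.

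Within the regulatory T cell-like class, cells with Il1rl1 were set beside cells without it. Foxp3, the defining transcription factor of regulatory T cells, was found in 116 of the 340 cells (34.1%), so the class also holds cells in which it was not seen. Foxp3 was in 47 of 101 firm Il1rl1 carriers (46.5%, 95% interval 36.5 to 56.7) and in 55 of 208 cells with 0 Il1rl1 (26.4%, 20.6 to 32.99). By tag, Foxp3 was in 48.2% and 40% of carriers in the anti-PD-1 pool and 57.1% and 50.0% in the no-anti-PD-1 pool, while in cells with 0 Il1rl1 it was in 22.7% and 40.9% in the anti-PD-1 pool and 28.6% and 16.7% in the no-anti-PD-1 pool. In tag 4 the Foxp3 shares of the sets were thus level, at 12 of 30 carriers and 18 of 44 cells with 0. Gata3, a transcription factor of type 2 lymphocytes that tissue regulatory T cells also use, was in 57.4% of carriers and 26.0% of cells with 0 Il1rl1. Klrg1, a receptor of effector T cells and activated group 2 innate lymphoid cells, was in 34.7% of carriers and 7.69% of cells with 0. Il2ra, the high-affinity IL-2 receptor chain, was in 62.4% and 30.8%, and Rora, a transcription factor of innate lymphoid and T cells, in 59.4% and 34.1%. The shares of Gata3, Klrg1, Il2ra and Rora were higher in carriers under each of the 4 tags. Cd4 was in 83.2% and 80.3% and Cd3e in 82.2% and 81.7%, with intervals that overlapped. Ctla4, an inhibitory receptor of T cells, was in 67.3% of carriers and 77.9% of cells with 0, and in tag 4 it was in 53.3% (34.3 to 71.7) and 86.4% (72.6 to 94.8). Median depth was 727 molecules in carriers and 526 in cells with 0. After each cell was thinned to 500 molecules, which left out 19 carriers and 98 cells with 0, Foxp3 was in 48.8% of carriers and 29.1% of cells with 0, Gata3 in 48.8% and 21.8%, Klrg1 in 36.6% and 10.9% and Il2ra in 62.2% and 40%. A carrier of 3 molecules needs depth to be seen, so the sets are not free of it even after thinning.

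Il5, which encodes a cytokine that acts on eosinophils, was found in few cells, and most of them carried Il1rl1. Of the 21 cells with Il5, 17 were firm Il1rl1 carriers, 18 fell in the regulatory T cell-like class, 19 held Cd4, 16 held Gata3 and 5 held Il13. Foxp3 was in 2 of the 21. Among firm Il1rl1 carriers of the class, Il5 was in 16 of 101 (15.8%, 95% interval 9.33 to 24.4), against 1 of 208 cells with 0 Il1rl1 (0.481%, 0.0122 to 2.65). In the thinned cells Il5 was in 16 of 82 carriers and 0 of 110 cells with 0 Il1rl1. Il5 molecules numbered 44 and 57 in tags 3 and 4 of the anti-PD-1 pool, against 2 and 0 in tags 1 and 2 of the no-anti-PD-1 pool. The cells with Il5 numbered 8 and 11 in the anti-PD-1 pool, against 2 and 0 in the no-anti-PD-1 pool. These are counts from tags and classes of unlike size. Among firm Il1rl1 carriers of the class, Il5 was in 6 of 56 (10.7%) and 8 of 30 (26.7%) in the anti-PD-1 pool. In the no-anti-PD-1 pool it was in 2 of 7 (28.6%) and 0 of 8, so these shares interleaved. A single cell of tag 4, outside the class, held 21 of these molecules.

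The genes furthest above all other cells in firm Il1rl1 carriers were Klrg1 (49.6-fold), Il2ra (40.8-fold), Tnfsf8 (37.9-fold), Il6 (35.6-fold), Foxp3 (34.8-fold), Tnfrsf4 (34.6-fold), Ccr8 (29.4-fold) and Rora (23.8-fold). By Jaccard index its nearest genes were Tnfrsf4, which encodes the costimulatory receptor OX40, at 0.268, Foxp3 at 0.219 and Cd5 at 0.210. Il6 stands apart from the T cell genes among these: the 101 regulatory T cell-like carriers held 5 Il6 molecules, against 2327 in the firm carriers of Fcer1a or Cpa3.

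Firm carriers of Fcer1a or Cpa3 numbered 35, of which 29 lay in the Il4, Cpa3 and Fcer1a cluster, 4 in neutrophil-like clusters, 1 in the Lgals1-high cluster and 1 in the CD8 T cell-like cluster. They fell into 2 sets by Kit. In 16 cells Kit stood at 5 to 54 molecules, and in the other 19 it stood at 0 or 1, with no cell between. The split by Kit was chosen after the values had been seen. Kit-positive cells numbered 7 and 7 in tags 3 and 4 of the anti-PD-1 pool, against 0 and 2 in tags 1 and 2 of the no-anti-PD-1 pool. As shares of cells these are 0.106% (95% interval 0.0425 to 0.218) and 0.482% (0.194 to 0.990) in the anti-PD-1 pool, against 0 of 2430 cells (95% interval 0 to 0.152; 3 cells would be 0.123%) and 0.132% (0.0160 to 0.476) in the no-anti-PD-1 pool. Kit-low cells numbered 7 and 1 in the anti-PD-1 pool, against 7 and 4 in the no-anti-PD-1 pool. Their shares were 0.106% (0.0425 to 0.218) and 0.0688% (0.00174 to 0.383) in the anti-PD-1 pool, against 0.288% (0.116 to 0.593) and 0.264% (0.0720 to 0.675) in the no-anti-PD-1 pool. The Kit-positive shares of the pools interleaved, with tag 3 below tag 2. Kit-low shares were lower under both anti-PD-1 tags than under both others, yet the intervals overlap. Kit was counted under tag 1, where it had 468 molecules in other cells.

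Kit-positive cells had more of the mast cell genes. Cpa3 summed to 2430 molecules in the 16 Kit-positive cells (median 101.5 per cell, 25 to 422) and to 86 in the 19 Kit-low cells (median 3, 0 to 16), so the sets did not overlap. Fcer1a had a median of 65.5 molecules (10 to 274) in Kit-positive and 6 (0 to 20) in Kit-low cells. Il1rl1 was in all 16 Kit-positive cells with a median of 34 molecules (7 to 99), and in 13 of 19 Kit-low cells with a median of 6 (0 to 28). Cd34, present on mast cells and their progenitors in mice, had a median of 16.5 molecules in Kit-positive cells, all of which held it, and was in 2 of 19 Kit-low cells. Cd63, a granule membrane protein, had medians of 102.5 and 17, and Ccl2 medians of 8.5 and 0. Lyn, a kinase of Fc receptor signalling, was in 16 of 16 and 9 of 19 cells, and Kcne3, a potassium channel subunit, in 9 of 16 and 3 of 19.

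Kit-low cells had more of several cytokine and chemokine genes, but not of all. Ccl2 was higher in Kit-positive cells (10984 against 33.4 CPM), as was Il1a (961 against 300), and Tnf was near level (3822 and 3355). Il4 was in 3 of 16 Kit-positive cells with 45 molecules in all and in 15 of 19 Kit-low cells with 866. Ccl3, a macrophage inflammatory chemokine, had a median of 29.5 molecules in Kit-positive cells and 729 in Kit-low cells, and the related Ccl4 medians of 77 and 458. Neutrophil-like cells also held Ccl3, in 7632 of 9038 cells with a median of 7. Ccl6 had medians of 0 and 92, Ccl9 of 0 and 61, and Il6 of 4.5 and 105. Csf2, which encodes GM-CSF, had 2 molecules in Kit-positive cells and 766 in Kit-low cells, where 10 of 19 held it. Xcl1, which encodes lymphotactin, had 1 molecule in Kit-positive cells and 340 in 6 Kit-low cells. Aqp9, a water and glycerol channel, was in 0 of 16 Kit-positive and 16 of 19 Kit-low cells. Il13 was less divided, with 80 molecules in 12 of 16 Kit-positive cells and 260 in 16 of 19 Kit-low cells. Of the 152 genes with at least 30 molecules in the 35 cells, 56.6% were at least 2-fold higher in Kit-positive cells and 15.8% at least 2-fold lower, by CPM.

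Transcripts of other cell types were counted beside these. Of the 11 T cell markers, 9 had a molecule in Kit-positive cells (0 to 327 molecules per cell, median 7) and 5 in Kit-low cells (0 to 5, median 1). Cd3e was in 14 of 16 Kit-positive cells with a median of 3.5 molecules, while Cd4 and Trdc were at 0. The highest T cell sum was in 1 cell of tag 2 with 9866 molecules, which clustered as CD8 T cell-like and held 274 Fcer1a, 369 Cpa3 and 41 Kit molecules. The 7 neutrophil markers ran from 0 to 3729 molecules (median 11) in Kit-positive cells and from 2 to 1055 (median 8) in Kit-low cells. B cell markers summed to at most 2 molecules in Kit-positive cells and to 0 in Kit-low cells. Cdh1, counted under tags 2 to 4 only, was in 1 of 16 Kit-positive cells (169 CPM) and in 9 of 12 Kit-low cells (1336 CPM, median 4 molecules), while Epcam was in 2 of 16 and 1 of 12. Foxp3 and Il5 were at 0 in both sets. The part of these transcripts in the differences between the sets was not tested. Median depth was 1928.5 molecules in Kit-positive and 2584 in Kit-low cells. Of the 14 listed mast cell markers 4 are on the shared panel, and of the 17 basophil markers 9 are, which limits how far either name can be checked.

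**Figure D4:**
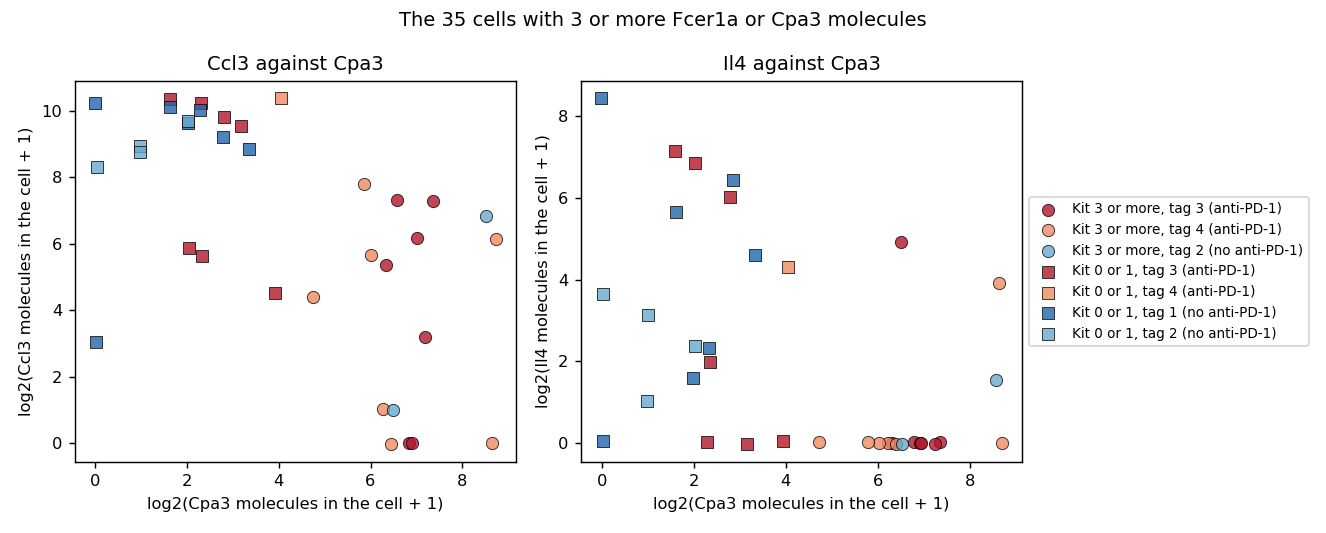
Each point is 1 of the 35 cells with 3 or more Fcer1a or Cpa3 molecules, with Ccl3 (left) and Il4 (right) against Cpa3, all as log2(molecules + 1) with a small random shift. Circles have 3 or more Kit molecules and squares 0 or 1. The 16 circles lie at 25 or more Cpa3 molecules and the 19 squares at 16 or fewer, and 15 of the squares have 324 or more Ccl3 molecules, against at most 214 in any circle.

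Because Fcer1a and Cpa3 were found together, the promoter windows of the members in RefSeq (GRCm38.p6) were searched for AGATAA on either strand (TTATCT), a core of the GATA motif. GATA factors are known regulators of mast cells, basophils and type 2 lymphocytes. A window covers 250 bases before to 50 after a start. Of all 32851 windows 11.2% hold the motif, and of the 9 windows of the 6 members 5 do, in Il1rl1 (2 of 2 windows), Fcer1a (1 of 1), Cpa3 (1 of 1) and Il13 (1 of 1), while those of Il33 (2) and Il4 (2) do not. Only this string and its reverse complement were searched, so a window without a match may hold another form of the GATA core. A match describes the letters in the window and is not a binding site. The window of Fcer1a is chr1:173227180-173227479 (minus strand), that of Cpa3 chr3:20242132-20242431 (minus strand), that of Il13 chr11:53634653-53634952 (minus strand), and the upstream window of Il1rl1 chr1:40429320-40429619 (plus strand). The downstream window of Il1rl1, chr1:40439379-40439678 (plus strand), also holds the motif, starting 103 bases before its start, and is not shown. For each gene with the motif 1 window is shown, 5′ to 3′ on the gene's strand with the match in capitals.
Fcer1a: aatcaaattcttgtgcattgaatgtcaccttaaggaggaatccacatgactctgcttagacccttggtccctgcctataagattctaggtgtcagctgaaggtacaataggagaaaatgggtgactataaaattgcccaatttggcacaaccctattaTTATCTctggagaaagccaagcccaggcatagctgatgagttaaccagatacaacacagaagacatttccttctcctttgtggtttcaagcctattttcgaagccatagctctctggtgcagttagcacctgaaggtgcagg
Cpa3: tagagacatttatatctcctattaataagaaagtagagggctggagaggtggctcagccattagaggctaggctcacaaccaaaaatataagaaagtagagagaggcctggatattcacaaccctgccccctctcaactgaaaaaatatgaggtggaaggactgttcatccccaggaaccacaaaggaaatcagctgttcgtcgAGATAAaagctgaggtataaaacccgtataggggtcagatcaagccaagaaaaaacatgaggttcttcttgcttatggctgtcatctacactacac
Il13: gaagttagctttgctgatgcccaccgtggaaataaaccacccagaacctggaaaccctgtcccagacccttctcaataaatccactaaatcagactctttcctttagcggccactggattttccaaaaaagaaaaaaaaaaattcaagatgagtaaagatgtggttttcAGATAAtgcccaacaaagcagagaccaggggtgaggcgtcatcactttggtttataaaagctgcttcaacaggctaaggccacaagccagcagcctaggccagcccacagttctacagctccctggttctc
Il1rl1: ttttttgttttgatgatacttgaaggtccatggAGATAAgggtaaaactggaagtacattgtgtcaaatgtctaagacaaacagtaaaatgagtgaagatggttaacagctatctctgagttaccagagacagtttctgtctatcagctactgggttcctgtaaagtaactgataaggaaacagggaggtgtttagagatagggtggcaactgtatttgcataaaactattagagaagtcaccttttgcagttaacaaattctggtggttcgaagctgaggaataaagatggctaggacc

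The match starts 92 bases before the start of Fcer1a, 46 before that of Cpa3, 81 before that of Il13 and 217 before the upstream start of Il1rl1.

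Co-detection of the 4 basophil and mast cell genes was then counted cell by cell. At 3 or more molecules, 55 cells carried at least 1 of Fcer1a, Cpa3, Il4 and Il13, 38 carried 2 or more, 17 carried 3 or more and 7 carried all 4. The 7 were 3 and 1 cells in tags 3 and 4 of the anti-PD-1 pool, against 3 and 0 in tags 1 and 2 of the no-anti-PD-1 pool. The most common pattern was Fcer1a with Cpa3 alone, in 12 cells, of which 6 and 5 came from the anti-PD-1 pool, against 0 and 1 from the no-anti-PD-1 pool. Fcer1a with Cpa3, whatever else the cell held, occurred in 10 and 8 cells of the anti-PD-1 pool, against 4 and 2 of the no-anti-PD-1 pool. Il4 with Il13 occurred in 8 and 1 cells of the anti-PD-1 pool, against 6 and 3 of the no-anti-PD-1 pool. These are counts and not shares, since tags 3 and 4 held 6620 and 1453 cells, against 2430 and 1515 in tags 1 and 2. They therefore give no order of the pools. The largest Jaccard index was between Fcer1a and Cpa3 at 0.686, followed by Il4 and Il13 at 0.450, and across these pairs Fcer1a and Il13 reached 0.356, Fcer1a and Il4 0.283, Cpa3 and Il13 0.261 and Cpa3 and Il4 0.217. Of the 31 firm Fcer1a carriers, 26 were firm Il1rl1 carriers, as were 21 of 28 for Cpa3, 18 of 28 for Il4 and 22 of 30 for Il13. No firm carrier of Fcer1a, Cpa3 or Il13 held an Il33 molecule, and 1 of Il4 did.

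Genes far above the other cells were shared by the carrier sets. In firm Fcer1a carriers they were Kcne3 (331-fold), Il6 (97.8-fold), Kit (36.9-fold), Cd34 (28.1-fold), Gzmb (23.3-fold), Csf2 (22.2-fold), Gimap5 (22.1-fold) and Ccl4 (19.9-fold). Cpa3 carriers had Kcne3 (379-fold), Il6 (87.4-fold), Kit (40.4-fold), Cd34 (31.7-fold), Gzmb (27.0-fold), Gimap5 (22.7-fold), Lat2 (19.5-fold) and Rgs1 (19.4-fold). In Il4 carriers they included Il6 (160-fold), Csf2 (57.3-fold), Ccl4 (25.8-fold), Cd69 (20.002-fold), Ccl3 (18.6-fold), Rgs1 (12.1-fold) and Ccl9 (12.04-fold). Il13 carriers had, among others, Il6 (132-fold), Gzmb (29.5-fold), Il2ra (27.1-fold), Ccl4 (22.6-fold), Csf2 (21.8-fold), Cd69 (18.7-fold) and Xcl1 (16.4-fold). Kit and Cd34 thus lead the Fcer1a and Cpa3 sets but are not among the leading genes of the Il4 and Il13 sets.

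Il4 and Il13 came from several sources, whose weight differed between tags. Of the 40 cells with 3 or more molecules of either cytokine gene, 5 were Kit-positive, 15 were Kit-low, 7 lay in the rest of the Il4, Cpa3 and Fcer1a cluster, 9 were regulatory T cell-like and 4 lay elsewhere. The rest of the cluster is 15 cells without firm Fcer1a or Cpa3, all with Ccl3 and Ccl4 and with 0 Kit molecules. Kit-low cells held 62.5% of all Il4 molecules, the rest of the cluster 20.2%, regulatory T cell-like cells 8.01% and Kit-positive cells 3.25%. A single Kit-low cell, of tag 1, held 337 of the 866 Il4 molecules of the Kit-low set. For Il13, regulatory T cell-like cells held 70.8%, Kit-low cells 18.2%, Kit-positive cells 5.59% and the rest of the cluster 4.05%. The Il13 share of regulatory T cell-like cells rested on 1 cell of tag 3 with 966 Il13 and 95 Il4 molecules. That cell had 6514 molecules, 73 of Cd4, 143 of Il2ra, 9 of Cd3e, 6 of Il1rl1 and 0 of Foxp3, Fcer1a, Cpa3 and Kit. Foxp3 was at 0 in all 9 regulatory T cell-like cells among the 40. The class name is that of their cluster and does not show that these cells were regulatory T cells.

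By tag, Kit-low cells held 54.4% and 55.9% of Il4 molecules in the anti-PD-1 pool (tags 3 and 4), against 95.6% and 10.5% in the no-anti-PD-1 pool (tags 1 and 2). The tag 4 share was that of 1 Kit-low cell with 19 Il4 molecules, and in tag 1 a single cell held 337 of the 503 Kit-low molecules. In tag 2 the rest of the cluster held 60.7%. Il4 in regulatory T cell-like cells was seen in tag 3 alone, with 111 molecules in 9 cells. Firm Il13 carriers in that class numbered 5 and 2 in the anti-PD-1 pool, against 0 and 0 in the no-anti-PD-1 pool, where the class had 28 and 34 cells. The upper bounds for those 0 counts are 12.3% and 10.3% of the class, above the 2.48% and 2.63% seen in tags 3 and 4. Those 0 counts therefore do not show a lower share, and with 1 sample per pool no difference was tested.

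**Figure D5:**
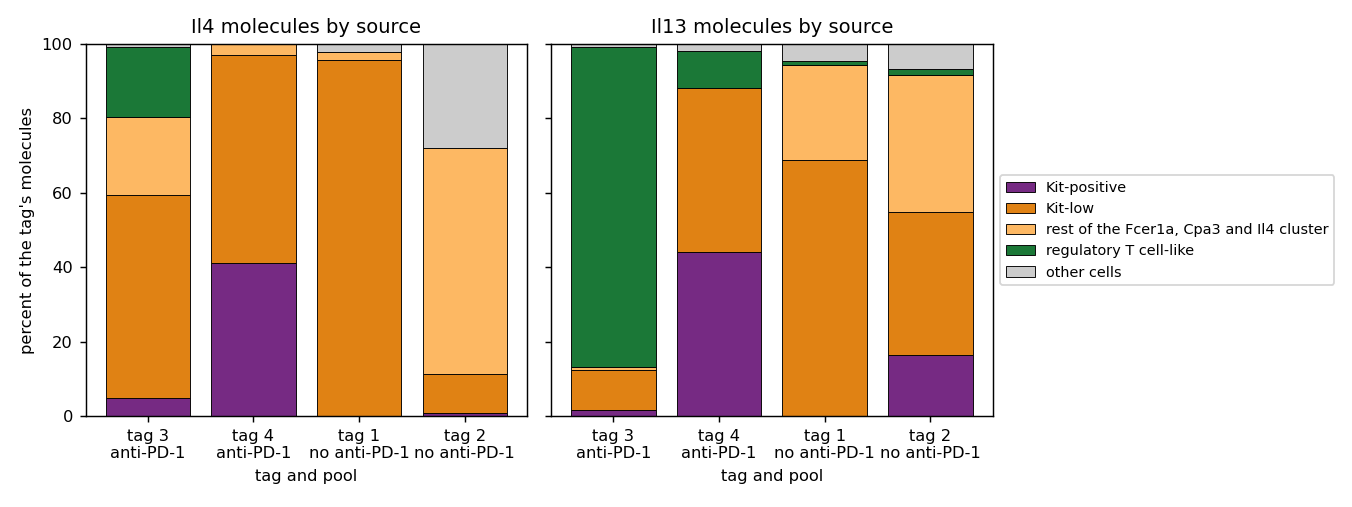
Share of each tag's Il4 molecules (left) and Il13 molecules (right) by source, stacked to 100%. Regulatory T cell-like cells hold 86.1% of Il13 molecules in tag 3, of which 966 are in 1 cell, and 10.1% in tag 4 of the anti-PD-1 pool, against 1.15% and 1.37% in tags 1 and 2 of the no-anti-PD-1 pool.

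The wider IL-33 and type 2 list has 53 genes, of which 28 are on the shared panel and 22 are not among the 6 members. Of these 22, 19 had at least 30 molecules, and 2 were higher and 1 lower in the anti-PD-1 pool, with a median log2 ratio of -0.16 against -0.10 over all 376 measured genes. Over all measured genes, 6.38% were called higher and 3.72% lower. Il5 was higher, at 3.54 and 18.5 CPM in the anti-PD-1 pool, against 0.376 and 0 CPM in the no-anti-PD-1 pool, and the no-anti-PD-1 values rest on 2 molecules. Chil3, a chitinase-like protein of neutrophils and alternatively activated macrophages, was higher, at 919 and 1456 CPM in the anti-PD-1 pool, against 533 and 502 CPM in the no-anti-PD-1 pool. Il3ra, the alpha chain of the IL-3 receptor, was lower, at 3.14 and 3.25 CPM in the anti-PD-1 pool, against 51.9 and 54.4 CPM in the no-anti-PD-1 pool. Of the other receptor and signalling genes of the list, Il4ra, Stat6, Myd88 and Traf6 were not called. Gata3 was not called either, at 54.3 and 121 CPM in the anti-PD-1 pool, against 229 and 170 CPM in the no-anti-PD-1 pool, so its pools did not overlap but its closest tags stood at a ratio of 0.714.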

How the data were processed

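Per the file headers, the deposited counts are molecules per cell and panel target after distribution-based error correction, from version 1.12.1 of BD's targeted Rhapsody pipeline. The submitters' processing notes also name Seurat 3.2.0, while no aligner or build is given in the sources used here. Targets of tag 1 came from another reference than those of tags 2 to 4, so sums and clusters use the 396 shared genes. Each cell was already assigned to its tag, and no cell was removed.

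Cells were clustered with scanpy 1.11.5 (30 principal components, 15 neighbours, Leiden resolution 1.0). Scrublet, run in scanpy, marked 3 of 12018 cells (0.025%), too few to rely on, so doublets were not removed and cells in the highest 5% of scores were left out as an alternative. Clusters were held in the neutrophil-like class by their S100a8 and Lgals1 levels, and the Cd200 and Zbtb16 cluster (S100a8 at 113938 CPM) was kept out of it after clusters had been seen. Ratios use pool means over tags, and tags are not replicates. Per-tag sums were also scaled by TMM (edgeR 4.0.16). Thinning drew 500 molecules per cell. Genes named beside the members are the 8 with the highest CPM in a carrier set over other cells (30 or more molecules, found in at least 20% of carriers) and the 3 nearest by Jaccard index, plus called genes of the wider list, markers, and genes that describe the Kit and Cd34 sets, which were picked after their values had been seen. A gene that this rule names is not reported here. The members and lists were chosen with earlier results of these data known.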

Additional observations from a re-analysis of the deposited data

How the results depend on the processing

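No paired analysis was possible because each pool is a single sample and the result comes from no test. Of the recomputed values, 85 stayed within their counting error or within 1.5 times the count, and 33 moved, all of which are given below. The cause of these moves was not tested.

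The log2 ratio of the pools for Il33 was -0.94, against -0.75 without S100a8, S100a9 and Fth1 in the total, -1.45 without the highest cell of each tag and -0.32 without the top doublet scores. Without the highest cells it was 1.95 for Fcer1a, 2.99 for Cpa3, -1.11 for Il4 and 0.20 for Il13, and for Il4 it was -1.35 without the 3 abundant genes. The Il4 call was also lost when 2-fold was asked. Il13 was called higher under TMM scaling (log2 ratio 1.74), without the 3 abundant genes (1.90), without tag 2 (1.98) and without tag 4 (2.201). Il33 was called lower without tag 2 (-1.55), Il1rl1 higher without tag 2 (1.955) or tag 3 (1.64), Cpa3 higher without tag 2 (5.31) or tag 3 (2.21) and Fcer1a higher without tag 2 (2.62).

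Log2 ratios of firm-carrier shares, in cells thinned to 500 molecules, were 1.68 for Il1rl1, 1.52 for Fcer1a, 2.40 for Cpa3 and 0.66 for Il13, against 0.97, 0.21, 1.04 and -0.67 unthinned. For Il13 the unthinned ratio was 0.26 at 1 molecule, so its sign depends on the threshold. The 2 leading clusters held 94.2% of Il33 molecules, against 95.5% at resolution 0.5 and 88.5% of firm carriers, and 69.7% of Il1rl1, against 72.6% at resolution 0.5 and 75.5% without the top doublet scores.

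Cells with Il4 and Il13 numbered 18, against 29 at 1 molecule and 9 after thinning. Cells with all 4 genes numbered 7, against 18, 12 and 3 at 1, 2 and 5 molecules and 0 after thinning. Genes called higher numbered 24, against 42 without the abundant genes, 6 at 2-fold, 93 without tag 2 and 83 without tag 3. Genes called lower numbered 14, against 8 without the abundant genes, 6 at 2-fold, and 22, 34, 23 and 47 without tags 1, 2, 3 and 4. Kit-low cells numbered 19, against 12 with tag 1 left out, an alternative chosen after seeing the data. Depth limits what a count of 0 in a cell can show, since median depth was 1262 to 1463 molecules.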
